A study of Homo sapiens with 2 samples.

Results

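The regions described here are the NUSAP1 peaks on human chromosomes 16, 17, 19 and 22, the 4 autosomes with the most protein-coding genes per megabase (Mb), in AsPC1 cells. They were taken from a peak list by chromosome and position alone. A peak was kept where its summit, the base of highest signal, lay on one of these chromosomes outside 16:34-47 Mb and 17:21-28 Mb, which surround the centromeres. The rule found 589 summits of 9043 in the whole list. It left out 47 summits in the windows at the centromeres. The other 18 autosomes, used for comparison, held 8275 summits.

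AsPC1 is a long-established line of human cells grown from a pancreatic ductal adenocarcinoma. Chromatin of these cells, for which the labels give no treatment, was fixed with formaldehyde, sheared by sonication and precipitated with an antibody to NUSAP1 (chromatin immunoprecipitation with sequencing, ChIP-seq) in 1 library, and input chromatin without antibody gave the other. Neither library had a replicate, and the values below come from the peaks called in the NUSAP1 library on build hg38. All intervals are 95% intervals for counting error within this list, and none of them covers the spread between cultures.

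NUSAP1, the nucleolar and spindle-associated protein, binds microtubules and chromatin. It is most abundant late in the cell cycle, sits in the nucleolus in interphase and holds microtubules near the chromosomes in mitosis. Gene-dense human chromosomes are rich in GC and CpG islands, lie towards the centre of the nucleus and carry large gene families, such as the zinc finger genes of chromosome 19.

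Sequences are shown for the starts nearest to a NUSAP1 summit, because starts are where the summits of these chromosomes most exceed their share of the sequence. The 250 bases before a listed start are given for 6 protein-coding genes whose summit lay within 50 bp before that start. Sequences are from RefSeq (GRCh38.p14), 5′ to 3′ towards the start, and capitals mark the summit base with 10 bases on each side, as far as the window reaches. ACSF3 encodes a mitochondrial acyl-CoA synthetase for malonate, CNP a cyclic nucleotide phosphodiesterase of myelin, NME1 a nucleoside diphosphate kinase, RFXANK a subunit of the factor that drives MHC class II genes, and ATF5 a stress-responsive transcription factor. C17orf75 is shown because its summit is one of the few with a small q.
ACSF3, chr16:89093602-89093851, plus strand: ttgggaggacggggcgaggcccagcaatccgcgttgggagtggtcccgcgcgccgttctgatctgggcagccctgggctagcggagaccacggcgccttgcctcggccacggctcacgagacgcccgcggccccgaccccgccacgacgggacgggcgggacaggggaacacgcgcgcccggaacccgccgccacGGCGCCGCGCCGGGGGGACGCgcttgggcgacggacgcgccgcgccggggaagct
C17orf75, chr17:32342174-32342423, minus strand: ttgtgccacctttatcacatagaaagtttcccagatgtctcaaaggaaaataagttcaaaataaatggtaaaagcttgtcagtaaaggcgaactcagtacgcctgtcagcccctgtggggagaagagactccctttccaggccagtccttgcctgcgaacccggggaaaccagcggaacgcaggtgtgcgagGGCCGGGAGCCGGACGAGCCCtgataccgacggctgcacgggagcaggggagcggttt
CNP, chr17:41966545-41966794, plus strand: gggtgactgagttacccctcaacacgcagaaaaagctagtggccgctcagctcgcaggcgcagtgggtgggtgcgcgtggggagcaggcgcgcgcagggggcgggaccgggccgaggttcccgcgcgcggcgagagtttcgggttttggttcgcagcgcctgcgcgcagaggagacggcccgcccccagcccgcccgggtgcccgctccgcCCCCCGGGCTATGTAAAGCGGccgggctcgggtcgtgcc
NME1, chr17:51153309-51153558, plus strand: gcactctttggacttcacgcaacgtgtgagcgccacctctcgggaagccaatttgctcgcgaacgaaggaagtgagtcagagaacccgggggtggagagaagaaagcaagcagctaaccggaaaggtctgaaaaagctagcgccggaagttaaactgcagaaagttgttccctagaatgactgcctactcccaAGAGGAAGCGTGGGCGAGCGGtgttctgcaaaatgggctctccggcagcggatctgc
RFXANK, chr19:19192029-19192278, plus strand: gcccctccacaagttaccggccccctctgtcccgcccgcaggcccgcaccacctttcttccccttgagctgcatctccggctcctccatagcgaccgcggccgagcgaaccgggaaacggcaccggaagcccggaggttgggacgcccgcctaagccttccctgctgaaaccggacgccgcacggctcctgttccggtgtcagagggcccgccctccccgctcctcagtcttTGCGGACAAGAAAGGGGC
ATF5, chr19:49928955-49929204, plus strand: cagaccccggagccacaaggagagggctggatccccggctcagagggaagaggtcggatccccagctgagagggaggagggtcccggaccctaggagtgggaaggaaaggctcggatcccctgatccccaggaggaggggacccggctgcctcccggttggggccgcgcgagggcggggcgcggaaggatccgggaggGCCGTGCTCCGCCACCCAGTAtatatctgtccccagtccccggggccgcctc
The summits lay 45 bp before the start of ACSF3, 48 bp before that of C17orf75, 29 bp before that of CNP, 47 bp before that of NME1, 8 bp before that of RFXANK and 42 bp before that of ATF5. NME1 shares this start with the read-through gene NME1-NME2. A gene can have several listed starts. The RFXANK summit also lay 13 bp after another listed start of that gene, and the start of C17orf75 used here lies inside the gene. The caller's fold enrichment, the signal at the summit over the local background, was 4.68 at ACSF3, 5.30 at C17orf75, 3.48 at CNP, 2.55 at NME1, 4.67 at RFXANK and 3.01 at ATF5. Only the summit at C17orf75 among these 6 had a q under 0.05 (q = 0.00384). At the others the caller's q was 0.0857 for ACSF3 and RFXANK, 0.779 for CNP, 0.914 for ATF5 and 1 for NME1.

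Most of the 589 peaks rested on few fragments. The number of fragments at a summit, worked out from the deposited fold enrichment and p, was 4 to 6 at 529 summits (89.8%), and 60 summits (10.2%) had 7 or more, against 11.6% of the summits on the other autosomes. The median fold enrichment was 3.01 in both sets, and it ran from 2.09 to 7.43 on the 4 chromosomes. The caller's q was under 0.05 at 8 of the 589 summits (1.36%, Wilson interval 0.690 to 2.66), against 0.979% on the other autosomes and 1.48% in the whole list. The ratio of the first 2 shares was 1.39 (0.674 to 2.86), so no difference was detectable. With the windows at the centromeres kept in, that ratio was 4.82, since 22 of their 47 summits had a q under 0.05. At 499 of the 589 summits (84.7%) q was at least 0.5. Single low summits are therefore described by their values, and none with a q above 0.05 is taken as a binding site.

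The chromosomes with the most genes did not carry the most NUSAP1 summits. Over the 252 Mb of the 4 chromosomes there were 15.2 protein-coding genes per Mb, against 5.97 on the other autosomes. Summits numbered 2.34 per Mb (exact Poisson interval 2.15 to 2.53), against 3.27 (3.20 to 3.34) over the 2531 Mb of the other autosomes. The ratio of the summit densities was 0.715 (0.656 to 0.777). Chromosomes 3, 6 and 11 raise the comparison value: without them the ratio was 0.850 (0.779 to 0.926). Among summits with a q under 0.05 no difference in density was detectable, with a ratio of 0.992 (0.414 to 2.05).

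The 4 chromosomes differed among themselves. Chromosome 17 had 263 summits, or 3.45 per Mb (3.05 to 3.90), the 9th highest density of the 22 autosomes. Chromosome 16 had 174, or 2.25 per Mb (1.93 to 2.61). Chromosome 19, first in gene density with 24.1 protein-coding genes per Mb, had 113 summits, or 1.93 per Mb (1.59 to 2.32), and ranked 16th. Chromosome 22 had 39, or 0.972 per Mb (0.691 to 1.33), and ranked 19th. The intervals of chromosomes 16 and 19 overlap, while those of 17 and 22 overlap with neither. Without chromosome 17 the ratio to the other autosomes was 0.567 (0.506 to 0.633).

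**Figure D1:**
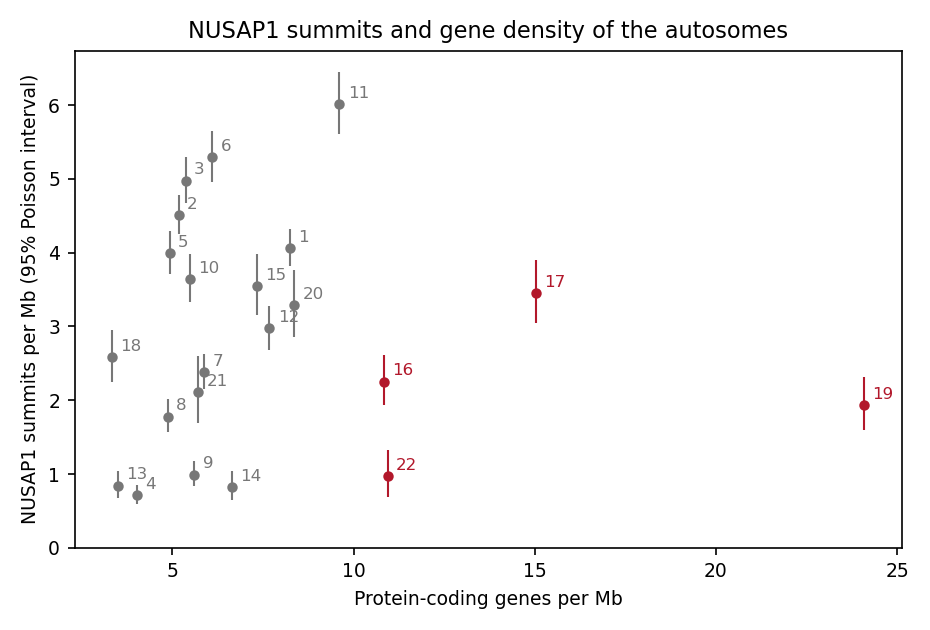
Summits per Mb (vertical axis) against protein-coding genes per Mb (horizontal axis) for each of the 22 autosomes, with the 4 gene-dense chromosomes named and bars for the 95% Poisson interval. Chromosome 19, with 24.1 genes per Mb, has 1.93 summits per Mb, while chromosome 11, with 9.61, has 6.01.

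Within a chromosome the summits were also uneven. On chromosome 16 the part below 34 Mb held 140 summits, or 4.12 per Mb (3.47 to 4.86), and the part above 47 Mb held 34, or 0.787 per Mb (0.545 to 1.1). The ratio of these densities was 5.24 (3.58 to 7.86), where the ratio of protein-coding gene densities was 1.63. The local background moved with this difference: 15.7% of the lower and 44.1% of the upper summits had the lowest background in the list, and at summits of 5 fragments the median background was 0.928 and 0.722 fragments. The part of the background in the difference was not tested. On chromosome 17 the parts on either side of the centromere had 3.63 and 3.39 summits per Mb (ratio 1.07, 0.810 to 1.41). On chromosome 19, split at 25 Mb near the centromere, the lower part had 1.52 and the upper part 2.23 summits per Mb (ratio 0.683, 0.449 to 1.02), with 24.3 and 23.9 genes per Mb. There too the share at the lowest background differed, with 39.5% in the lower and 8.0% in the upper part.

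**Figure D2:**
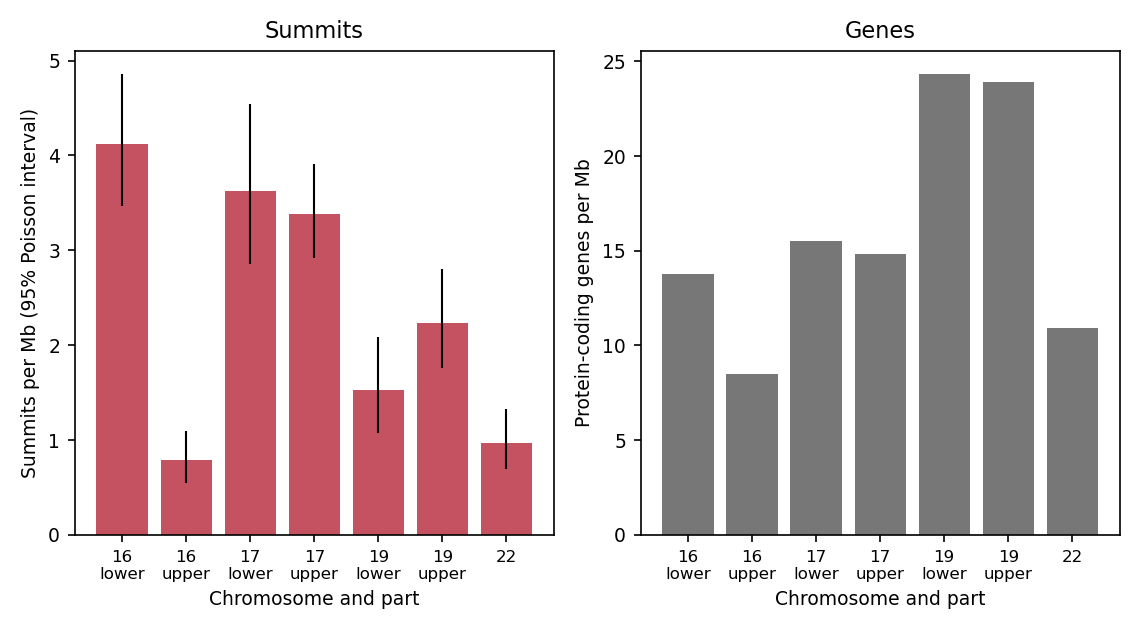
Summits per Mb with 95% Poisson intervals (left) and protein-coding genes per Mb (right) for the lower and upper parts of chromosomes 16, 17 and 19, on each side of the centromere, and for chromosome 22. The lower part of chromosome 16 has 4.12 summits per Mb and its upper part 0.787, while its gene densities differ less.

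Windows of 5 Mb differed in summits among gene-rich and among gene-poor windows. The comparison took 47 windows, mainly inside the spans and outside the stretches left out. The 23 with more than the median of 53 protein-coding genes held 254 summits (1 to 24 a window, median 9). The 24 with 53 or fewer held 283 (1 to 26, median 7). On chromosome 19, the window from 30 to 35 Mb held 23 summits and 34 protein-coding genes, and that from 40 to 45 Mb held 1 summit and 137 genes. On chromosome 17, the window from 50 to 55 Mb held 26 summits and 35 genes. The windows from 40 to 45 Mb, with 182 genes, and from 45 to 50 Mb, with 82 genes, held 9 and 3 summits. On chromosome 16, the window from 5 to 10 Mb held 22 summits and 15 genes. The window from 0 to 5 Mb of the same chromosome, with 188 genes, held 24. These windows were picked after their counts were seen, as examples with many summits and few genes or the reverse, and the last for having many of both.

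RBFOX1, which encodes a neuronal splicing factor and lies in the window from 5 to 10 Mb of chromosome 16, had 10 summits in its body, the most of any protein-coding gene on the 4 chromosomes. The gene is 2474 kb long, and the part of chromosome 16 below 34 Mb, in which it lies, had 4.12 summits per Mb. The count in RBFOX1 is near what that density gives over its length. The highest fold enrichment in the gene was 4.10 (q = 0.418). On chromosome 17 ANKFN1 (471 kb) and SLC39A11 (447 kb), which encodes a zinc transporter, had 5 summits each, with fold enrichments of at most 3.52 and 3.28. On chromosome 19 the most was 2, in ZNF536, a neuronal zinc finger gene, and in 3 other genes (in ZNF536 highest fold enrichment 4.57, q = 0.0952). On chromosome 22 no protein-coding gene body held more than 1 summit, and MEI1, a meiosis gene, had the highest fold enrichment there (4.50, q = 0.119).

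Where the summits sat relative to genes was read against the sequence itself, since on a gene-dense chromosome more bases lie near a gene. A summit was counted at a gene end where it lay within 1 kb of either end of a gene that is protein-coding or makes a long non-coding RNA. This held for 83 of the 589 summits (14.1%, Wilson interval 11.5 to 17.1), against 6.42% of the 8275 on the other autosomes. Of these 83, 64 were at the end of a protein-coding gene and 19 at that of a long non-coding RNA gene alone. Gene ends covered 8.05% of the sequence of the 4 chromosomes and 4.31% of the others. The summits were thus at gene ends 1.75 times as often as the sequence (1.43 to 2.13) on the 4 chromosomes and 1.49 times (1.37 to 1.62) on the others. The ratio between these was 1.18 (0.948 to 1.46), whose interval includes 1.

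By chromosome the ratio to the sequence was 1.81 (1.19 to 2.70) on 16, with 20 summits at an end, and 1.64 (1.20 to 2.21) on 17, with 35. It was 1.67 (1.12 to 2.41) on 19, with 21, and 2.66 (1.33 to 4.84) on 22, with 7. These 4 intervals overlap one another. Among summits of 7 or more fragments on the 4 chromosomes, 15 of 60 were at a gene end, 3.11 times the sequence (1.96 to 4.62), and the value on the other autosomes was 2.96 (2.51 to 3.49). Among those of 4 or 5 fragments the ratio was 1.72 (1.35 to 2.18) on the 4 chromosomes and 1.19 (1.07 to 1.34) on the others, while among those of 6 fragments it was 1.19 (0.693 to 1.99) and 1.60 (1.35 to 1.89). The gene interiors showed no such excess: 301 summits (51.1%) lay inside a gene, where the sequence has 56.1%, and 205 (34.8%) outside genes, where it has 35.8%.

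**Figure D3:**
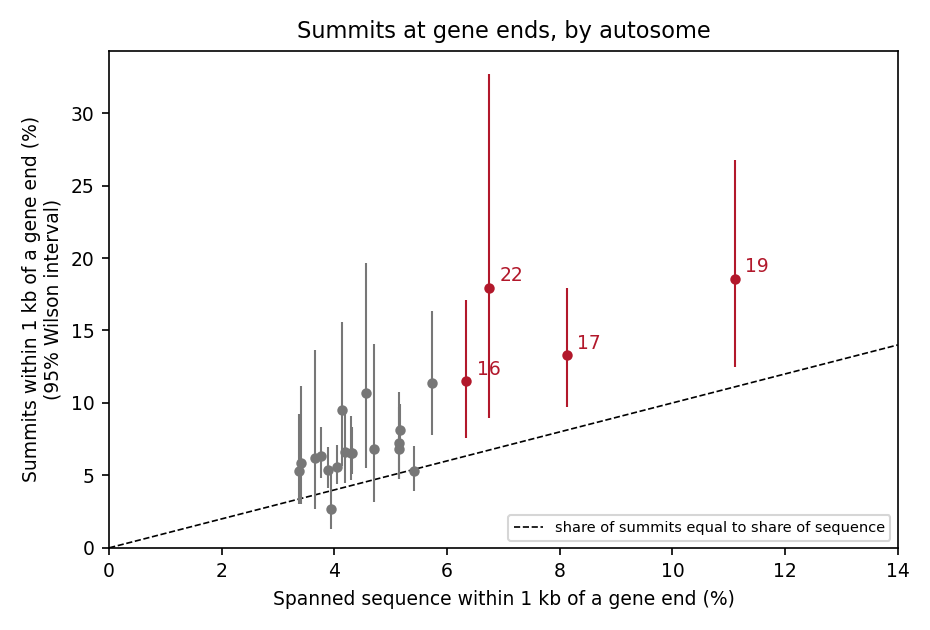
The share of summits within 1 kb of a gene end (vertical axis, percent, with 95% Wilson intervals) against the share of the spanned sequence within 1 kb of an end (horizontal axis, percent) for the 22 autosomes, with the 4 gene-dense chromosomes named in red. All 4 lie above the dashed line of equal shares, with 11.5% against 6.34% on chromosome 16 and 18.6% against 11.1% on chromosome 19.

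The excess lay close to the ends. Within 250 bp of an end there were 31 summits, 2.39 times the sequence (1.69 to 3.34), and from 250 bp to 1 kb 52, 1.51 times (1.16 to 1.95). Between 1 and 5 kb the ratio was 0.934. The other autosomes had the same order, with 1.97 (1.71 to 2.27), 1.31 (1.18 to 1.45) and 0.992. The median summit of the 4 chromosomes was 9.82 kb from an end and their median base 11.8 kb. On the other autosomes these distances were 23.5 and 25 kb.

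Starts and far ends of genes differed. RefSeq promoter windows gave starts for 79.7% of protein-coding genes, and chromosome 8 was not used in this comparison. Within 250 bp of a listed start lay 32 summits on the 4 chromosomes (5.43%), 5.73 times the sequence (4.08 to 7.98). On the other autosomes 152 of 8017 summits did so (1.90%), 3.61 times (3.08 to 4.22). The ratio of these ratios was 1.59 (1.09 to 2.30). This comparison was added after the data were seen, its interval reached below 1 without chromosome 17 (0.990 to 2.56) or without 19 (0.927 to 2.31) and at a fold enrichment of at least 4 (0.681 to 4.34), and among summits of 7 or more fragments the ratio was 1.02 (0.486 to 2.13). Far ends held 3 summits within 250 bp, 0.620 times the sequence (0.211 to 1.81). Within 1 kb they held 20, 1.06 times the sequence (0.689 to 1.62), so neither interval sets far ends apart from the sequence. Of the 59 summits within 1 kb of a start, 27 were before it and 32 at or after it, at a median distance of 229 bp.

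**Figure D4:**
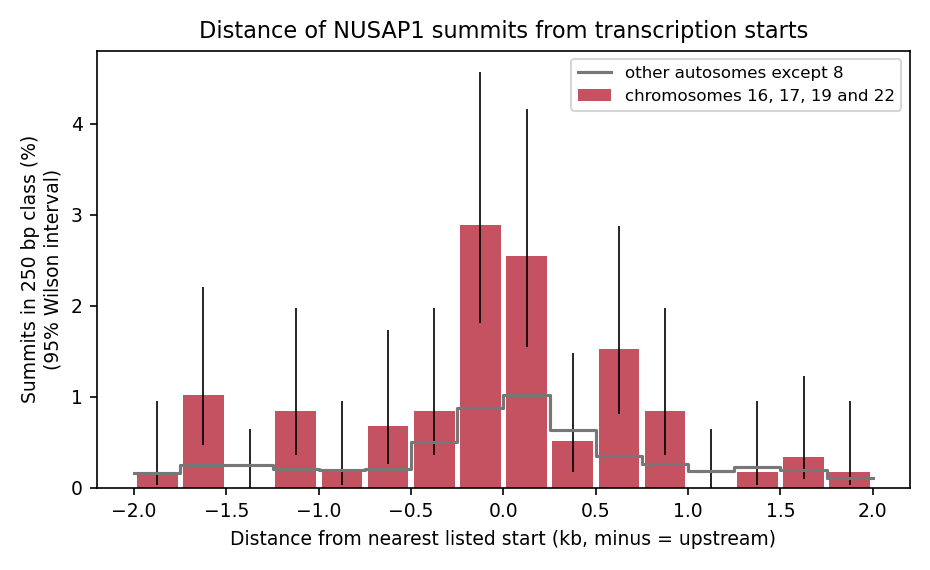
The share of summits (vertical axis, percent, with 95% Wilson intervals on the bars) in classes of 250 bp by distance from the nearest listed start (horizontal axis, kb), as bars for the 4 gene-dense chromosomes and as a grey line for the other autosomes without chromosome 8. The bars on either side of the start are the highest, and together they hold the 32 summits within 250 bp.

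The 300-base windows around starts that held a summit had more GC than windows in general. The windows ran from 250 bases before to 50 after a start. On the 4 chromosomes 21 of 5453 held a summit (0.385%), against 130 of 28208 on the other autosomes without chromosome 8 (0.461%). The median GC content of the 21 was 66.7%, against 62.7% for all 5453, and their median number of CpG dinucleotides was 26 against 19. The motif GGGCGG, searched on both strands, was in 14 of the 21 (66.7%) and in 56.4% of all windows. It occurs in the windows of ACSF3, CNP, RFXANK and ATF5 printed above and in neither that of C17orf75 nor that of NME1. CCAAT was in 4 (19%) against 34.6%. TATAAA was in 0 of 21, which allows a share of up to 14.3%, against 7.54% of all windows. On the other autosomes the 130 windows with a summit had a median GC content of 68.8% against 57.3% for all. The motifs went the same way there: GGGCGG was in 67.7% against 42.9% of all, CCAAT in 18.5% against 34.3% and TATAAA in 3.08% against 12.3%. Some windows share a summit, those of NME1 and NME1-NME2 and those of BORCS8, BORCS8-MEF2B and RFXANK. The limit of 14.3% takes all windows as separate, and these counts are a description of the windows.

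The same summits were also counted per gene. Of the 3830 protein-coding genes on the 4 chromosomes, 77 had an end with a summit within 1 kb (2.01%, Wilson interval 1.61 to 2.51), against 2.35% of the 15122 on the other autosomes. The ratio was 0.854 (0.669 to 1.09), whose interval includes 1. With other distances the interval lay below 1: the ratio was 0.728 (0.531 to 0.999) within 500 bp of an end, and 0.692 (0.595 to 0.806) within 5 kb, where 186 and 1061 genes had a summit. The shares were 2.39% on chromosome 16, 2.27% on 17, 1.77% on 19 and 1.37% on 22. Because genes lie close together, 12 of the summits were at the ends of more than 1 protein-coding gene.

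The 8 summits with a q under 0.05 numbered 2 on chromosome 16, 5 on 17, 1 on 19 and 0 of 39 on 22, which allows a share there of up to 7.69%. The smallest q of the 589 was at SNORD3A, a gene of the U3 small nucleolar RNA that guides early processing of ribosomal RNA. Its peak, chr17:19188022-19188281, had 17 fragments over a background of 1.42, fold enrichment 7.43 and q = 1.03e-08. U3 has near-identical copies, and how reads that match several copies were placed is not given in the sources used here, so the assignment to this copy is uncertain. The copies SNORD3B-2 and SNORD3D also had a summit, with 13 fragments, fold enrichment 3.07 and q = 0.418, and with 12 fragments, 2.47 and q = 0.825. Next to LOC124904138, a small nuclear RNA gene, a summit 65 bp away had 21 fragments over a high background of 4.98 (fold enrichment 3.68, q = 0.00315).

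At protein-coding genes, 1 peak with so small a q was at an end. It was at chr17:28357272-28357509, inside POLDIP2 (gene ID 26073), which encodes a partner of DNA polymerases. The neighbouring gene VMA12 (gene ID 147007) encodes an assembly factor of the vacuolar proton pump. The summit of this peak was 141 bp after the listed start of POLDIP2 and 261 bp from VMA12, with 10 fragments over a background of 1.15 (fold enrichment 5.12, q = 0.00672). The C17orf75 summit printed above had 10 fragments over 1.08 and lay 7793 bp inside the nearer end of the gene. A summit inside U2AF2, the large subunit of a splicing factor, had 15 fragments over a background of 2.85 (fold enrichment 4.16, q = 0.0101). On chromosome 17 a summit 1516 bp beyond VMP1, which encodes a membrane protein of autophagy, had 10 fragments (fold enrichment 4.78, q = 0.0188), and a neighbour 946 bp from the same gene had a fold enrichment of 3.52 (q = 0.458). The remaining 2, on chromosome 16, had no gene within 1 kb: one had 8 fragments (fold enrichment 5.26, q = 0.0106) 140 kb from a gene end, and the other 12 over a background of 2.14 (4.15, q = 0.0483).

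**Figure D5:**
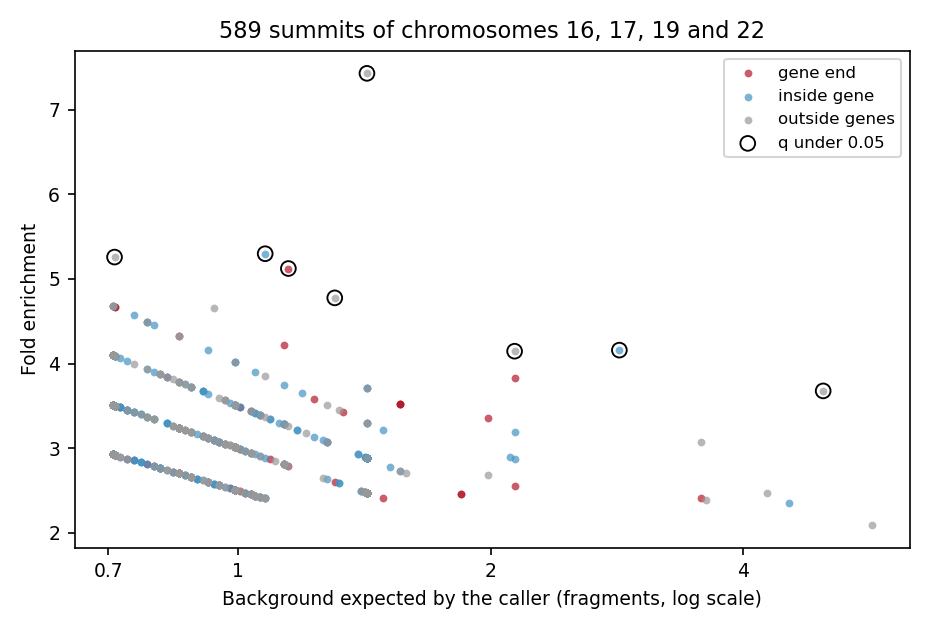
The fold enrichment of each of the 589 summits (vertical axis) against the background the caller expected there (horizontal axis, fragments, log scale), coloured by place relative to genes, with the 8 summits of q under 0.05 circled. The slanting rows are summits with the same whole number of fragments, and the highest point, at 7.43, is SNORD3A.

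For summits with a q of 0.05 or more, protein-coding genes are given by the fold enrichment at their ends, from the highest down. At ends of long non-coding RNA genes the highest was at LOC105371790 on chromosome 17 (4.67, q = 0.0857). On chromosome 16 these were ACSF3, a summit shared by NUTF2, a nuclear import factor, and EDC4, a scaffold of mRNA decapping (4.32, q = 0.186), and ZKSCAN2, a zinc finger gene (3.83, q = 0.166, 11 fragments over 2.14). On 17 they included, among protein-coding genes, DNAH17, a dynein heavy chain of sperm tails (4.22, q = 0.184), and TMEM238L (3.84, q = 0.418). On 19 the RFXANK summit also lay 119 bp from BORCS8, a subunit of the complex that positions lysosomes. ZNF333 (3.51, q = 0.779) and a summit between CAMSAP3, which binds microtubule minus ends, and XAB2 (3.51, q = 0.779) followed. On 22 the highest were TRABD (3.51, q = 0.779) and DNAJB7 (3.49, q = 0.753), and the sixth, YDJC, had 4 fragments (2.93, q = 1).

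Gene lists chosen for these chromosomes were read against the 2.01% of all protein-coding genes. Of 294 zinc finger genes, matched by their symbols, 4 had a summit at an end (1.36%, 0.530 to 3.45), namely ZNF333, ZSCAN22, ZNF548 and ZNF530. ZKSCAN2, named above with a summit at an end, was not matched and is not counted. Another 9 genes of this list had a summit only in the body, against 218 of all 3830 protein-coding genes. On chromosome 19 alone the share was 4 of 249 (1.61%) for zinc finger genes and 21 of 1161 (1.81%) for the other protein-coding genes. None of the 28 keratin, 11 metallothionein, 10 HOXB, 22 CEACAM and PSG, 15 kallikrein, 13 APOBEC3 and APOL and 30 immunoglobulin-like receptor genes had a summit at an end. A count of 0 of 28 allows a share of up to 10.7%, so these counts do not set the lists apart from the other genes.

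Lists tied to the study's title, to NUSAP1's own role and to other functions were read against the same 2.01%. Their shares with a summit at an end ran from 0 to 6.45%, and every Wilson interval included 2.01%. Of 20 genes of glycolysis and lactate handling 1 had a summit at an end (5%, 0.888 to 23.6). It was SLC16A13, which encodes a monocarboxylate transporter (3.39, q = 0.779). Of 33 genes of mitosis and the spindle 0 had one at an end, which allows a share of up to 9.09%. In 3 of them a summit lay only in the body, against 218 of all 3830 protein-coding genes. They were AURKB, a kinase of the chromosomal passenger complex (2.50, q = 1), NDEL1, a dynein regulator (4.09, q = 0.418), and FZR1, an activator of the anaphase-promoting complex (4.68, q = 0.0857). Ribosomal protein genes (0 of 24) and mitochondrial ribosomal protein genes (0 of 15) had none, and respiratory chain genes had 1 of 26, NDUFB10 (2.48, q = 1). Of 59 solute carrier genes 2 had one, SLC16A13 and SLC25A10, the mitochondrial dicarboxylate carrier (2.89, q = 0.944). Of 31 genes of the transcription machinery 2 had one, ELOB, an elongin subunit (2.89), and GTF2F1, a subunit of TFIIF (2.81). Of 45 genes often altered in tumours 0 had a summit at an end and 4 only in the body.

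The lists of small RNA genes were read against genes that are not protein-coding. Of 85 small nuclear, Cajal body and nucleolar RNA genes, matched by their symbols, 4 had a summit at an end (4.71%, Wilson interval 1.85 to 11.5), against 1.21% of all 4698 genes on these chromosomes that are not protein-coding. Of these 4, 3 are the U3 copies, which share their sequence, and the last, RNU12, an RNA of the minor spliceosome, shares its summit with POLDIP3 (3.06, q = 0.820). By RefSeq's own gene types, which also hold genes without such a symbol, 5 of 191 small nuclear and nucleolar RNA genes had one (2.62%, 1.12 to 5.98), LOC124904138 being the fifth. Of 67 tRNA genes 0 had a summit, which allows a share of up to 4.48%.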

How the data were processed

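The authors deposited 1 peak list, of the NUSAP1 library, and no data of the input library were read for this report. Whether the caller took its local background from the input is not given in the sources used here. Per the submitters' processing notes, bcl2fastq 2.17, Trimmomatic 0.33, Bowtie 1.1.2 and MACS2 2.1.0 were used with build hg38; settings are not given in the sources used here. Each deposited line gives fold enrichment (a ratio of the summit to its local background), the caller's −log10 p, its −log10 q, the summit offset in bp and a display score that equals 10 times −log10 p without its decimals. Read totals per library were not part of the list, so the depth is unknown beyond the fragments at each summit.

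Fragments and background were worked out from fold enrichment, taken as (fragments + 1) over (background + 1), and the Poisson p, within 0.001 for all 9043 summits (largest error 0.000262); the scripts were tested on simulated data. The lowest background was 0.708 fragments. A summit counted as at it within 0.01.

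Genes came from a RefSeq table (GRCh38.p14, 59792 genes; 831 on unplaced sequences were left out), matched by position. Starts and sequences came from RefSeq promoter windows, which hold no chromosome 8. Spans run from the lowest to the highest gene or peak. Covered shares were computed over every base of the span. Intervals are Wilson, exact Poisson, exact conditional binomial (ratios of densities) or log-scale (ratios of shares).

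The members and the gene lists were chosen with earlier results of these data known. Genes were named by rule: those at summits with q under 0.05, per chromosome the 6 protein-coding genes whose ends had the highest fold enrichment, the one with the most summits in its body and the 2 smallest q, and up to 4 members per list. The printed start sites were chosen by distance, after the data were seen, as were CNP, NME1 and ATF5 with them; AURKB, NDEL1, SLC39A11 and LOC105371790 were named outside the rule, after their values were seen. Alternatives were stricter limits on q, fold and fragments, other windows, merged summits, high backgrounds left out and each chromosome left out; those on start sites and on gaps in the span were added after seeing the data. With no replicates, no test over samples was possible. The scripts ran on Python 3.11.15 with scipy 1.17.1, pandas 2.3.3 and numpy 2.4.6, and figures were drawn with matplotlib 3.10.9.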

Additional observations from a re-analysis of the deposited data

How the results depend on the processing

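The ratio of summit densities, 0.715, had an interval below 1 under 11 of 12 alternatives. It was 0.626 at 7 or more fragments, 0.992 at a q under 0.05 (8 and 81 summits; interval 0.414 to 2.05, the exception), 0.850 without chromosomes 3, 6 and 11 among the other autosomes, 0.567 without chromosome 17 and 0.794 without chromosome 22, and moved by less than its interval under the other 7. The gene-end ratio of 1.18 was 0.319 at a q under 0.05 (1 and 17 summits) and 0.925 at a fold enrichment of at least 4 (6 and 51 summits); 12 alternatives gave values within the interval. The ratio of protein-coding genes with a summit at an end, 0.854, was 0.564 at a q under 0.05 (2 and 14 genes) and 1.15 at a fold enrichment of at least 4 (9 and 31 genes). Its interval excluded 1 within 500 bp (0.728, 0.531 to 0.999) and 5 kb (0.692, 0.595 to 0.806). The ratio of summits with a q under 0.05, 1.39, was 4.82 with the windows at the centromeres kept in and 0.940 without chromosome 17. The start-site ratio of 1.59, added after seeing the data, was 1.02 at 7 or more fragments. The cause of these differences was not tested. The limits of the data are the single library, the 4 to 6 fragments behind most summits and the small number with a q under 0.05. No paired analysis was possible because each group had 1 library and only the precipitated one had a peak list.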

Other observations

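Other classes of genes on the 4 chromosomes were counted in the same way. The shares to read them against are 2.01% of protein-coding genes and 1.21% of all genes that are not protein-coding. A summit lay within 1 kb of either end at 31 of 2076 long non-coding RNA genes (1.49%, Wilson interval 1.05 to 2.11). The counts were 12 of 1636 for pseudogenes (0.733%, 0.420 to 1.28) and 3 of 378 for microRNA genes (0.794%, 0.270 to 2.31). Only the pseudogene interval lay below 2.01%, and each interval included 1.21%. On these chromosomes 13 summits (2.21%) had a background 3 or more times its lowest value, against 1.44% on the other autosomes. On chromosome 22, 41.0% of the summits were at the lowest background, the highest share of the 4 chromosomes.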
